A study of Mus musculus with 5 samples.

Results

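The livers of mice given rosiglitazone (RGZ) alone were compared with the livers of mice given vehicle, across every gene that the arrays measured. RGZ is a thiazolidinedione, a class of drugs that raise insulin sensitivity. The series holds 5 groups of female BALB/c mice, 6 weeks old, whose livers were taken 6 hr after an intraperitoneal dose. One group had vehicle only and one had RGZ at 300 mg/kg. The others had troglitazone (TGZ), also at 300 mg/kg, or either drug together with buthionine sulfoximine (BSO), an inhibitor of glutathione synthesis, at 700 mg/kg. No group had BSO alone. By its title the series is about TGZ-induced injury of the liver, and RGZ is a drug of the same class at the same dose and time. RNA of 6 animals was pooled to make the 1 sample of each group, and each pool was hybridised to 1 single-colour array. There was thus no replicate, no difference could be tested, and the spread between animals is hidden inside each pool. A gene entered the comparison when its probe was called well above background by the scanner software on the RGZ array, the vehicle array or both, with the probe of highest mean signal over the 5 arrays standing for a gene that had several. Of 36870 gene names on the array, 21351 did so.

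Thiazolidinediones bind PPAR gamma, a nuclear receptor that pairs with RXR and switches on genes of fat uptake, lipid storage and adipocyte function. Liver holds far less of this receptor than fat tissue does, and the related receptor PPAR alpha governs fatty acid oxidation in hepatocytes. Hepatocytes also run the acute phase response, in which cytokines such as interleukin 6 and interleukin 1 act through STAT3, NF-kappaB and C/EBP factors to raise secreted defence proteins. They make cholesterol by a pathway whose genes are switched on together by SREBP2 when sterols are scarce. The 2 drugs share the thiazolidinedione ring at one end of the molecule. At the other end TGZ carries a chroman ring like that of vitamin E, and RGZ an aminopyridine.

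The promoter sequences shown here belong to genes on which the results turn. Serum amyloid A genes and Lcn2 had the largest measured differences in favour of RGZ, Chac1 and Fgf21 led the stress genes, and Hmgcs1 starts the cholesterol pathway. Each line gives 250 bases before the transcription start, 5′ to 3′, from RefSeq's annotation of GRCm38.p6. In the first 4 the capitals mark letters that match TTGCNNAA, a C/EBP-type motif, on either strand. They mark TGATGNAA, the C/EBP-ATF response element, in Chac1 and Fgf21, and TCACNCCAC, a sterol regulatory element, in Hmgcs1.
Saa1: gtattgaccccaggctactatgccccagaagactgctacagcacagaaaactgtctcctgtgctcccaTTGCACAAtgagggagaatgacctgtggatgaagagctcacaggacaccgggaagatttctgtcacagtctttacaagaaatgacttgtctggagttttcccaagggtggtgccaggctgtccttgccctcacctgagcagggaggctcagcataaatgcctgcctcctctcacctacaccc
Saa2: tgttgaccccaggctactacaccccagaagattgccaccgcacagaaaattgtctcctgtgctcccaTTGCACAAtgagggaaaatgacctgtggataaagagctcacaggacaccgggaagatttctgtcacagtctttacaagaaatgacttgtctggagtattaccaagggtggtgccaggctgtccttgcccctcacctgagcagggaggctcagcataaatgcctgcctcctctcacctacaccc
Saa3: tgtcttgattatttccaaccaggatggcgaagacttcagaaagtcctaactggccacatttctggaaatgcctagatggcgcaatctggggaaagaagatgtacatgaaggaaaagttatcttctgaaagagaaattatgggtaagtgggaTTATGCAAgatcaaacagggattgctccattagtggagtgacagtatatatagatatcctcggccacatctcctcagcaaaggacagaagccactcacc
Lcn2: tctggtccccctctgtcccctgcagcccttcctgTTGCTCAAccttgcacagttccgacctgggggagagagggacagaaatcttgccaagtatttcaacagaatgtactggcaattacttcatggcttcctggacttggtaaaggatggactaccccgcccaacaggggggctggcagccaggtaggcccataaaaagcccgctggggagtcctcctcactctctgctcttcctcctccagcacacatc
Chac1: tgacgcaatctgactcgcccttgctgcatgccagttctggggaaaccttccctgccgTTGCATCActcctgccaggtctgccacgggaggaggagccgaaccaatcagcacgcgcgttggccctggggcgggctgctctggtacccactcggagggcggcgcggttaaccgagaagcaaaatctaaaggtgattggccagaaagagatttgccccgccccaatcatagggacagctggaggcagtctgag
Fgf21: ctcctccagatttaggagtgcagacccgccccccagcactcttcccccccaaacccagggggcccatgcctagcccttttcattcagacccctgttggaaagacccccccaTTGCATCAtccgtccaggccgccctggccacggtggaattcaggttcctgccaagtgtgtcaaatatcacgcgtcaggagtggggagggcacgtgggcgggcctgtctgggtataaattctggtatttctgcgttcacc
Hmgcs1: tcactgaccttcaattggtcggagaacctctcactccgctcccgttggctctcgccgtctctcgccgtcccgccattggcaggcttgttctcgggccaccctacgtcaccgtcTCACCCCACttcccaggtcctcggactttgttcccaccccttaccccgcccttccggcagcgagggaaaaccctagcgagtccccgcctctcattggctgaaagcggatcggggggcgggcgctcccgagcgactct
The windows lie at chr7:46742981-46743230 (minus strand) for Saa1, chr7:46751583-46751832 (plus strand) for Saa2, chr7:46715677-46715926 (minus strand) for Saa3, chr2:32387740-32387989 (minus strand) for Lcn2, chr2:119350992-119351241 (plus strand) for Chac1, chr7:45615491-45615740 (minus strand) for Fgf21 and chr13:119690101-119690350 (plus strand) for Hmgcs1. The Saa1 and Saa2 windows were identical at 238 of 251 aligned positions (94.8%), and Saa1 and Saa3 matched over 52.2%. The C/EBP-type letters were found in 15 of 29 acute phase genes that had a window, and in 8 of the 15 among them that were at least 2-fold different. They stood in 9.56% of all 32851 windows. A kappaB motif (GGG, any 2 bases, then TTTCC) was present in 4 of the 29 genes against 1.41% of all windows: Steap4, Serpina3n, Serpina3g and Il1rn, all at least 2-fold higher by their brightest probe. A STAT motif, TTCCNGGAA, was in 1 of them, Steap4, against 0.91% of all windows. The response element TGATGNAA was present in 7 of 30 stress response genes, among them 3 of the 5 that were at least 2-fold higher (Chac1, Fgf21 and Pycr1), and in 3.45% of all windows. The sterol element was present in 1 of 24 genes of cholesterol synthesis and uptake, against 1.05% of all windows. Both strands were searched, and letters of different motifs can overlap in part. A match describes letters in this window and is not a binding site shown by these data.

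Signals are given as processed intensities scaled so that the 75th percentile of each array equals that of the vehicle array, 184.5, so a gene's values can be read across the 5 arrays but not set against another gene's. Folds carry a 95% interval from the spot error that the scanner software estimates. This error spans a factor of 1.32 either way for a typical gene, and covers neither animals, pools nor labelling. Where only 1 of both arrays was well above background, the gene has a bound, written "at least". Each array had 51.87% to 55.15% of its 56605 probes well above background, and 19924 genes were measured on both arrays of this comparison while 1427 had a bound.

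RGZ left most of the liver transcriptome within 2-fold of vehicle. Of 21351 genes, 706 (3.31%) were at least 2-fold different, 352 higher (1.65%) and 354 lower (1.66%). Among the higher genes 251 were measured on both arrays and 101 were bounds, and among the lower genes 268 and 86. The higher side reached further. At 4-fold, 49 genes were higher and 21 lower. At 8-fold, 14 were higher and 3 lower. At 16-fold, 7 were higher and 0 lower, and all 3 genes past 32-fold encode serum amyloid A proteins. The median of the measured differences was -0.04 on the log2 scale, with quartiles of -0.25 and 0.17 and an SD of 0.41. Counts of list members above or below 0 are to be read beside these values, as the share of all genes below 0 is not given here. The even split, 49.9% of calls higher, depended on the scaling and the background: it was 62.7% (448 higher and 266 lower) when arrays were scaled to the spike-in RNA, 60.3% with background corrected by the normexp model, and 41.8% with no filter on dim probes. Dim genes were called more often, 4.89% in the lowest quartile of signal and 2.38% in the highest. Of 140 called genes with several measured probes, 117 had every probe in 1 direction and 60 had every probe past 2-fold.

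**Figure D1:**
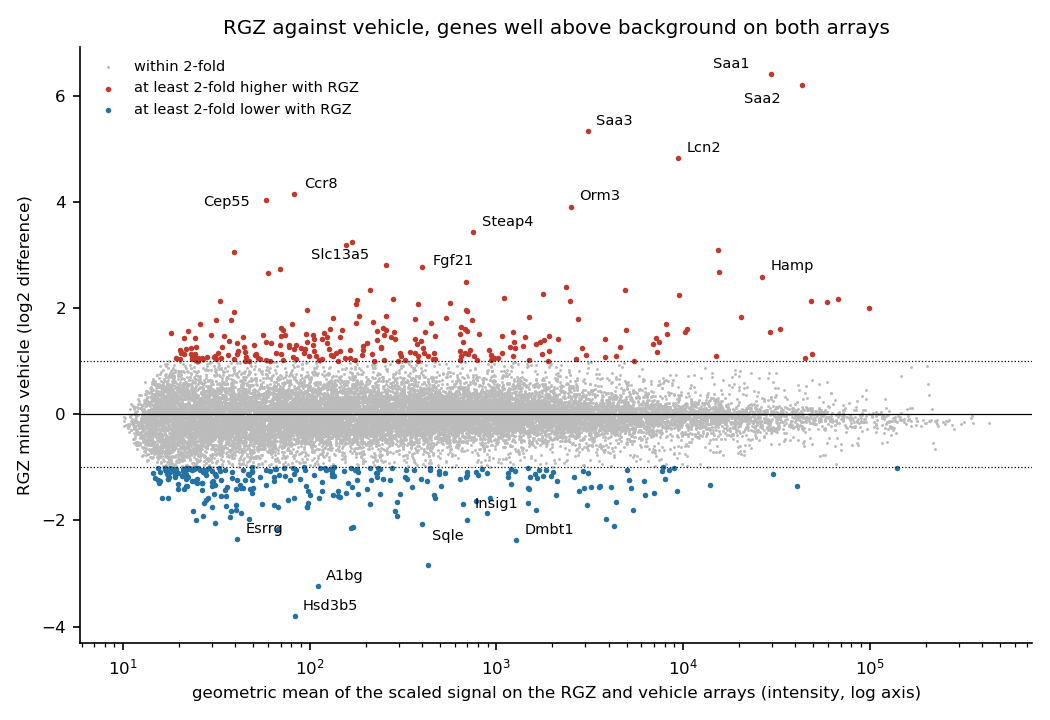
Log2 difference between the RGZ and vehicle arrays (vertical axis) against the geometric mean of the scaled signal on both arrays (horizontal log axis, intensity), 1 point per gene measured on both arrays. Red and blue points are at least 2-fold higher (251 genes) and lower (268 genes) with RGZ, grey points lie within 2-fold, and the named genes Saa1, Saa2, Saa3 and Lcn2 stand furthest up.

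The tissue label held on both arrays. All 12 hepatocyte markers were well above background, with a summed scaled signal of 1600922 on the vehicle and 1606037 on the RGZ array. Markers of other cells that differed are given here once. Of 13 neutrophil markers 10 had a value, with a measured median of 0.88 on the log2 scale (0.21 with the normexp background), and 4 were at least 2-fold higher. They were S100a8 (3.29-fold, 2.49 to 4.34), S100a9 (2.799-fold, 2.12 to 3.69), Mpo and Retnlg, while Ngp, Ltf and Mmp9 were not well above background on either array. The neutrophil sum was 20836 with vehicle and 22450.1 with RGZ. S100a8 read 248 and 815 on these arrays and S100a9 1143 and 3200, so most of both sums came from other markers. Marco, a scavenger receptor of macrophages, was 3.43-fold (interval 2.598 to 4.53) higher, but the sum of 12 Kupffer cell markers was 15617 with vehicle and 15548 with RGZ. Of 7 erythroid markers with a value 1 was at least 2-fold lower and 2 were above 0, with a sum of 78454 against 46617 and a median of -0.67. The adipocyte sum was 66864 against 26770.3, mostly Car3, a carbonic anhydrase of muscle, fat and liver (2.56-fold (interval 1.94 to 3.37) lower by one probe and 0.10 on the log2 scale by another), and Adipoq, Retn and Cidea were not well above background on either array. Single markers past 2-fold elsewhere were Lyve1 of sinusoidal endothelium (2.59-fold (interval 1.94 to 3.44) higher), Krt19 of bile ducts (2.97-fold (interval 2.21 to 3.98) lower) and Slc4a1, the erythroid marker (2.45-fold (interval 1.65 to 3.63) lower), all 3 under 2-fold with the normexp background. Of the 12 sinusoidal markers 10 were below 0 (median -0.21), and their sum was 15089 with vehicle and 13738 with RGZ. The bile duct markers had a median of -0.12 and a sum of 60178 with vehicle and 62907 with RGZ. Cnn1 of smooth muscle was at least 6.27-fold lower, and also under 2-fold with normexp. Cela1, an acinar elastase, was 2.62-fold (interval 1.99 to 3.46) lower, at 4788 with vehicle and 1829 with RGZ. The measured B cell markers (5) had a median of -0.47, the T and NK cell markers (7) -0.22, and the stellate and smooth muscle markers -0.41 and -0.14. In these bulk samples, fewer cells of a type and less RNA per cell cannot be told apart. The part of these markers in any result below was not tested.

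**Figure D2:**
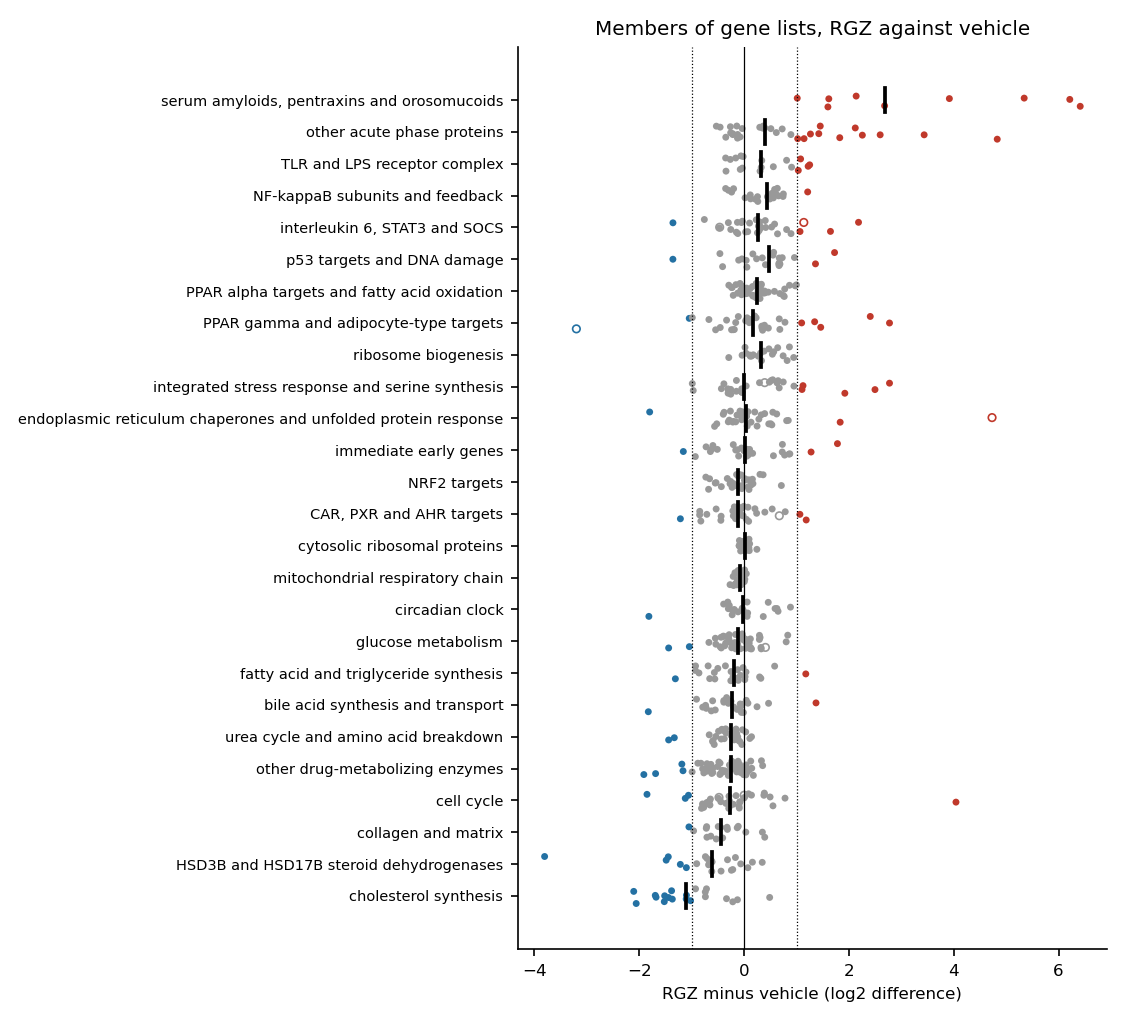
Log2 difference between RGZ and vehicle for the members of 26 gene lists, 1 point per gene, with bounds as open circles and a black bar at the median of measured members. Dotted lines mark 2-fold; all points of the serum amyloid, pentraxin and orosomucoid list lie to the right of the upper line, and 12 of the 20 cholesterol synthesis genes lie to the left of the lower line.

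Acute phase proteins gave the largest differences. In the list of serum amyloids, pentraxins and orosomucoids, 9 of 10 genes had a value and all 9 were at least 2-fold higher with RGZ, with a median of 2.68 on the log2 scale. Serum amyloid A proteins ride on high-density lipoprotein in inflammation. Saa1 had a scaled signal of 3224 on the vehicle array, 274269 with RGZ, 312164 with BSO plus RGZ, 371050.1 with TGZ and 332882 with BSO plus TGZ. Its difference between RGZ and vehicle was 85.1-fold (interval 64.5 to 112). Saa2 had 5044 on the vehicle array, 373863 with RGZ, 414048 with BSO plus RGZ, 528392 with TGZ and 462786 with BSO plus TGZ. RGZ was 74.1-fold (interval 56.2 to 97.8) above vehicle. All 4 treated arrays lay far above the vehicle array for both genes, and the RGZ array was the lowest of the 4. Before scaling, their RGZ signals of 309629 and 422062 exceeded the brightest spike-in RNA on that array, 257729, so whether signal stayed proportional to RNA there was not tested. Saa3, which macrophages and other cells outside the hepatocyte also make, had 487 on the vehicle array, 19749 with RGZ, 113439 with BSO plus RGZ, 4149.9 with TGZ and 13412 with BSO plus TGZ. It was 40.6-fold (interval 30.7 to 53.5) higher, and here the RGZ arrays, above all the one with BSO, exceeded the TGZ arrays. Saa4, the constitutive family member, read 6013 on the vehicle array, 18417 with RGZ, 16492 with BSO plus RGZ, 6609 with TGZ and 8967 with BSO plus TGZ. Its RGZ arrays were highest, TGZ alone was near vehicle and BSO plus TGZ was 1.49-fold above vehicle. The probes of these paralogs can share sequence, so each may report on its relatives too.

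The orosomucoids, plasma carriers of basic drugs, followed. Orm3 had a scaled signal of 648 on the vehicle array, 9769 with RGZ, 12606 with BSO plus RGZ, 4387 with TGZ and 5303 with BSO plus TGZ, a difference of 15.1-fold (interval 11.4 to 19.9). A further Orm3 probe gave a log2 difference of 1.5 against 3.92. Orm2 was 6.41-fold (interval 4.86 to 8.46) higher and Orm1 4.399-fold (interval 3.33 to 5.805). Of the pentraxins, which bind bacterial and nuclear debris, serum amyloid P (Apcs) had 2845 on the vehicle array, 8611 with RGZ, 9747 with BSO plus RGZ, 3979.7 with TGZ and 4160.2 with BSO plus TGZ. It was 3.03-fold (interval 2.29 to 3.99) higher with RGZ and stood higher on both RGZ arrays than on both TGZ arrays. C-reactive protein (Crp) was 2.02-fold (interval 1.53 to 2.66) higher, close to the 2-fold line.

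Of 32 other acute phase proteins, 31 had a value, and 11 were at least 2-fold higher and 0 lower, with a median of 0.39. Lcn2, which withholds iron from bacteria by binding their siderophores, had 1778 on the vehicle array, 50487 with RGZ, 105296 with BSO plus RGZ, 158326 with TGZ and 122168 with BSO plus TGZ. Its RGZ signal was 28.4-fold (interval 21.5 to 37.5) that of vehicle, and the other treated arrays were higher still. Steap4, a metalloreductase, had 229 on the vehicle array, 2479 with RGZ, 3710.2 with BSO plus RGZ, 5266 with TGZ and 3545 with BSO plus TGZ, a difference of 10.8-fold (interval 8.19 to 14.3). Hamp, the precursor of hepcidin, which blocks iron export from cells, had 10812 on the vehicle array, 65337 with RGZ, 59098 with BSO plus RGZ, 120941 with TGZ and 94406 with BSO plus TGZ. It was 6.04-fold (interval 4.58 to 7.97) higher, and all treated arrays stood above vehicle. The antiproteases Serpina3n and Serpina10 (protein Z-dependent protease inhibitor) were 4.77-fold (interval 3.62 to 6.299) and 2.73-fold (interval 2.07 to 3.61) higher. Lrg1, a leucine-rich glycoprotein, was 4.35-fold (interval 3.29 to 5.74) higher, and Lbp, the carrier that hands lipopolysaccharide to Cd14, 2.68-fold (interval 2.03 to 3.54). Slc39a14, the importer of zinc and iron, was 2.404-fold (interval 1.82 to 3.17) higher, Fgl1 2.21-fold (interval 1.67 to 2.91) and Serpina3g 2.03-fold (interval 1.54 to 2.68). The eleventh, Il1rn, is given with the interleukin 1 family. Fgl1 came under 2-fold when the probes of a gene were averaged, its other probe being at -0.29 on the log2 scale. The 7 negative acute phase proteins, which fall in inflammation, were all below 0, between -0.46 and -0.08, with none past 2-fold. Of the fibrinogen chains, which build the clot, Fga was 3.05-fold (interval 2.31 to 4.02) higher by one probe and 0.48 on the log2 scale by another, and all 3 chains were above 0 with a median of 0.91. In the whole coagulation list 2 of 27 genes were at least 2-fold higher and 0 lower, with a median of 0.11. The 26 complement genes lay between -0.30 and 0.40, with 0 past 2-fold.

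Genes upstream of these proteins differed less, apart from a few chemokine genes. In the interleukin 6 and STAT3 list 4 of 32 genes were at least 2-fold higher and 1 lower (median 0.26). Il6 itself was at least 2.20-fold higher, not well above background with vehicle and at 22.7 with RGZ. Socs3, the feedback inhibitor that this pathway induces, had 364 on the vehicle array, 1141 with RGZ, 1816 with BSO plus RGZ, 17740.0 with TGZ and 12759 with BSO plus TGZ. RGZ was 3.13-fold (interval 2.37 to 4.13) above vehicle, and the TGZ arrays were several times higher again. Mt2, a metal-binding metallothionein, was 4.54-fold (interval 3.44 to 5.99) higher. Arid5a, which stabilises inflammatory transcripts, was 2.09-fold (interval 1.58 to 2.77) higher. Lifr, the receptor for leukemia inhibitory factor, was 2.56-fold (interval 1.94 to 3.38) lower by its brightest probe and under 2-fold with its probes averaged (-0.90 on the log2 scale). Of the interleukin 1 family 3 of 11 genes were higher, all of them brakes on the pathway or its neighbour: the receptor antagonist Il1rn (3.54-fold, 2.66 to 4.71), the decoy receptor Il1r2 (at least 2.65-fold) and the interleukin 18 binding protein Il18bp (2.13-fold, 1.61 to 2.82). A further Il1rn probe gave a log2 difference of 0.69 against 1.82, under 2-fold. Il1b differed by 0.26 on the log2 scale and Tnf by -0.35, both within 2-fold. In the NF-kappaB list the adhesion molecule Icam1 was 2.32-fold (interval 1.76 to 3.06) higher and no other of 21 genes passed 2-fold (median 0.44). Cd14, co-receptor for lipopolysaccharide, had 157 on the vehicle array, 373 with RGZ, 1078 with BSO plus RGZ, 38626 with TGZ and 24525 with BSO plus TGZ. It was 2.38-fold (interval 1.799 to 3.14) higher with RGZ. The adaptor Myd88 was 2.33-fold (interval 1.77 to 3.08) higher, and Tlr1 and Irak3 were 2.11-fold (interval 1.43 to 3.11) and 2.05-fold (interval 1.33 to 3.15) higher at low signal, so 4 of 18 genes of this list were higher and 0 lower (median 0.32, and 0.08 with the probes of a gene averaged). Among 27 chemokine and receptor genes 4 were higher. Ccr8, a chemokine receptor of T cells and other leukocytes, had 19.5 on the vehicle array, 346 with RGZ, 579 with BSO plus RGZ, 1869.8 with TGZ and 1323 with BSO plus TGZ, a difference of 17.8-fold (interval 12.5 to 25.2). Cxcl13, which attracts B cells, had 26.8 on the vehicle array, 179 with RGZ, 252 with BSO plus RGZ, a value not well above background with TGZ and 30.5 with BSO plus TGZ. It was 6.67-fold (interval 4.76 to 9.35) higher with RGZ, and both RGZ arrays were high while TGZ alone was not above background and TGZ with BSO was near vehicle. Cxcl1, which attracts neutrophils, was 2.08-fold (interval 1.58 to 2.75) higher and Cxcl14 at least 2.38-fold. The neutrophil marker values above stand beside all of these. With the normexp background Il6, Arid5a, Il1r2, Il18bp, Tlr1, Irak3, Cxcl14, Serpina3g, Mpo and Retnlg came under 2-fold, and Cxcl14 also with probes averaged. The log2 difference of Ccr8 was 2.52 with normexp against 4.15, and that of Cxcl13 1.38 against 2.74.

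Cholesterol synthesis genes were lower in most of the pathway. Of 21 genes 20 had a value, 19 were below 0, and 12 were at least 2-fold lower with none higher, at a median of -1.10 (-0.96 with the normexp background). In the steps up to farnesyl diphosphate, Hmgcs1, the synthase that makes HMG-CoA, had 10544 on the vehicle array, 3687 with RGZ, 3028 with BSO plus RGZ, 1290.2 with TGZ and 1806 with BSO plus TGZ. It was 2.86-fold (interval 2.17 to 3.77) lower, with the vehicle array the highest of all 5. The kinase Mvk was 2.87-fold (interval 2.18 to 3.79) lower, the decarboxylase Mvd 2.15-fold (interval 1.63 to 2.84), the isomerase Idi1 3.21-fold (interval 2.43 to 4.23) and the synthase Fdps 2.61-fold (interval 1.98 to 3.44). In the squalene steps, Fdft1 was 2.15-fold (interval 1.63 to 2.83) lower and Sqle, the epoxidase and a further point of control, had 814 on the vehicle array, 196 with RGZ, 117 with BSO plus RGZ, 134 with TGZ and 126 with BSO plus TGZ. Its difference was 4.17-fold (interval 3.15 to 5.501), and every treated array was low. From lanosterol on, Msmo1, a C4 demethylase, had 8847 on the vehicle array, 2056 with RGZ, 1667 with BSO plus RGZ, 1344 with TGZ and 1200.4 with BSO plus TGZ. It was 4.304-fold (interval 3.26 to 5.68) lower by its brightest probe, and its 3 measured probes ran from -2.11 to -0.76 on the log2 scale. Cyp51, the C14 demethylase, was 3.24-fold (interval 2.45 to 4.27) lower, Sc5d 2.72-fold (interval 2.06 to 3.59), Nsdhl 2.58-fold (interval 1.95 to 3.42) and Dhcr7, the last reductase, 2.03-fold (interval 1.54 to 2.68).

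Genes that sense and move sterol differed less as a group. Insig1, the ER protein that holds SREBP2 back and is itself an SREBP target, had 1383 on the vehicle array, 347 with RGZ, 163 with BSO plus RGZ, 253 with TGZ and 280.5 with BSO plus TGZ. RGZ was 3.98-fold (interval 3.02 to 5.26) below vehicle and RGZ with BSO lower again. Stard4, a carrier of cholesterol inside cells, had 2372 on the vehicle array, 1092 with RGZ, 690.0 with BSO plus RGZ, 408 with TGZ and 635 with BSO plus TGZ. RGZ was 2.17-fold (interval 1.65 to 2.87) below vehicle, and every other treated array was lower again. Srebf2, the factor, differed by -0.13 on the log2 scale. In all 3 of 13 genes of this list were at least 2-fold lower, and its median was -0.07. The 13 LXR targets and sterol exporters lay between -0.43 and 0.35, with 0 past 2-fold. Mvd and Dhcr7 came under 2-fold with the normexp background, and Dhcr7 also under spike-in scaling.

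**Figure D3:**
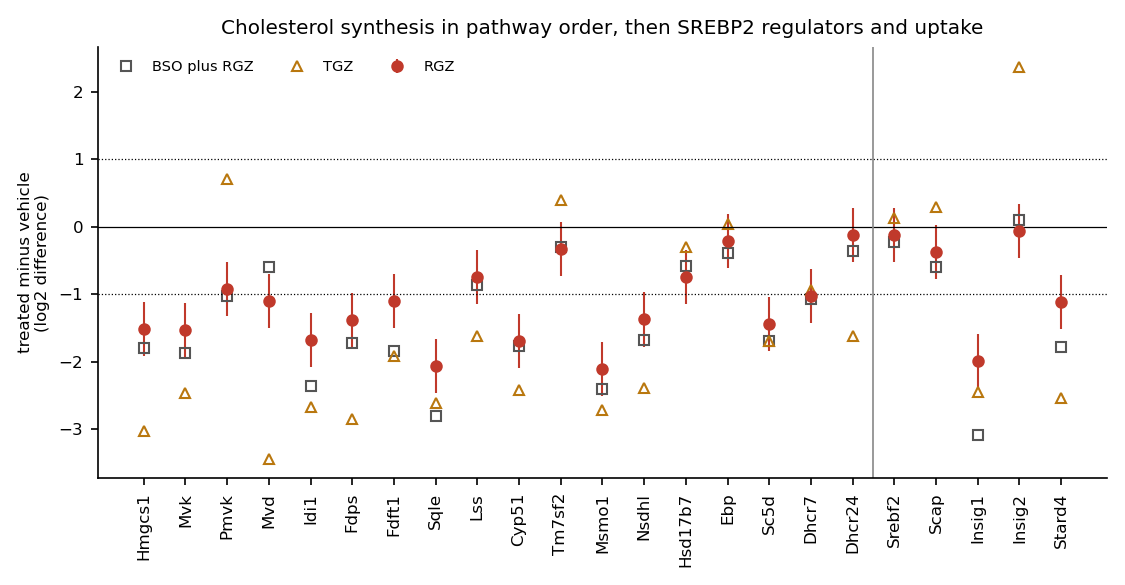
Log2 difference from vehicle for 18 cholesterol synthesis genes in pathway order (left of the grey line) and for regulators and uptake genes (right of it). Red points with 95% spot error bars are RGZ alone, open squares BSO plus RGZ and open triangles TGZ; all share the vehicle array, and for Sqle and Insig1 all 3 lie below the lower 2-fold line.

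Of the receptors that the drug class is known for, Pparg had 873 on the vehicle array, 1114 with RGZ, 1347 with BSO plus RGZ, 792 with TGZ and 868 with BSO plus TGZ. Its difference with RGZ was 0.35 on the log2 scale, that of Ppara 0.27 and that of their partner Rxra 0.23, all inside 2-fold. Of 31 PPAR gamma and adipocyte-type targets with a value, 5 were at least 2-fold higher and 2 lower (median 0.17). The higher ones were mainly proteins of the lipid droplet. G0s2, which inhibits the triglyceride lipase of the droplet, had 1022 on the vehicle array, 5418 with RGZ, 5515 with BSO plus RGZ, 497 with TGZ and 1687 with BSO plus TGZ. It was 5.302-fold (interval 4.02 to 6.995) higher with RGZ, alike on both RGZ arrays, while TGZ alone was below vehicle. Plin4 and Plin2, droplet coats, were 2.75-fold (interval 2.08 to 3.64) and 2.14-fold (interval 1.62 to 2.82) higher, and Cidec, which fuses droplets, 2.54-fold (interval 1.92 to 3.36). Unlike G0s2, these were higher still with TGZ alone, at 31.3-fold, 3.15-fold and 53.6-fold above vehicle for Plin4, Plin2 and Cidec. Fgf21, a secreted hormone of fasting and stress, had 153 on the vehicle array, 1048 with RGZ, 2762 with BSO plus RGZ, 584 with TGZ and 757 with BSO plus TGZ, a difference of 6.83-fold (interval 5.17 to 9.03). Cfd (adipsin), secreted by adipocytes, was at least 9.19-fold lower, at 84.7 with vehicle, not well above background on both RGZ arrays, and at 238 with TGZ. Plin1, the adipocyte droplet coat, was 2.07-fold (interval 1.401 to 3.05) lower at low signal. The adipocyte marker sums above stand beside both. The fatty acid carrier Fabp4 had 710.5 on the vehicle array, 739 with RGZ, 1149 with BSO plus RGZ, 4303 with TGZ and 3543 with BSO plus TGZ. RGZ alone equalled vehicle within the spot error (1.04-fold, 0.79 to 1.37), and Cd36, the fatty acid translocase, did so too (1.02-fold, 0.77 to 1.35), whereas Fabp4 was high on both TGZ arrays. Angptl4, an inhibitor of lipoprotein lipase, was 1.72-fold (interval 1.30 to 2.26) higher. Plin1 came under 2-fold with the normexp background and with spike-in scaling, and Plin2 with probes averaged. Cfd was -1.38 on the log2 scale with normexp, against a bound of -3.20.

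Among 44 PPAR alpha targets and genes of fatty acid oxidation none passed 2-fold, yet 34 lay above 0 with a median of 0.25 (0.33 with spike-in scaling). The largest was Cpt1a, which carries fatty acids into mitochondria, at 5753 on the vehicle array, 11484 with RGZ, 10613 with BSO plus RGZ, 11153 with TGZ and 10758 with BSO plus TGZ, or 1.996-fold (interval 1.51 to 2.63), just under the line. Crat and Pex11a, of carnitine exchange and peroxisome division, were 1.97-fold (interval 1.49 to 2.59) and 1.82-fold (interval 1.38 to 2.403) higher. Cyp4a10 and Cyp4a14, the omega hydroxylases often used to read PPAR alpha activity, differed by 0.38 and 0.39. Pdk4, which shuts off pyruvate oxidation, had 124 on the vehicle array, 155 with RGZ, 244 with BSO plus RGZ, 11756 with TGZ and 10608 with BSO plus TGZ. It was 1.249-fold (interval 0.94 to 1.65) higher with RGZ alone, within the spot error of no difference, and far higher on both TGZ arrays. In fatty acid and triglyceride synthesis 20 of 27 genes were below 0 (median -0.20). Acss2, which activates acetate and is an SREBP target, was 2.48-fold (interval 1.88 to 3.28) lower. Scd1, the desaturase, had 4821 on the vehicle array, 10895 with RGZ, 12206 with BSO plus RGZ, 21599.9 with TGZ and 17103 with BSO plus TGZ, a difference of 2.26-fold (interval 1.71 to 2.98) higher. The 21 apolipoprotein and lipoprotein genes had 0 past 2-fold (median -0.10).

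In the integrated stress response, which ATF4 drives when translation slows, 5 of 31 genes were at least 2-fold higher and 0 lower, with a measured median of 0.00 (0.15 with probes averaged). Chac1, which breaks down glutathione, had 291 on the vehicle array, 1644 with RGZ, 1676 with BSO plus RGZ, 9742 with TGZ and 6584 with BSO plus TGZ. Its difference was 5.64-fold (interval 4.27 to 7.45), alike with and without BSO, and the TGZ arrays were higher. Pycr1 of proline synthesis was 3.79-fold (interval 2.59 to 5.54) higher. Ddit3, the factor CHOP, had 88.6 on the vehicle array, 193 with RGZ, 284 with BSO plus RGZ, 126 with TGZ and 76.0 with BSO plus TGZ, or 2.18-fold (interval 1.64 to 2.89). Gdf15, a secreted stress signal, was 2.15-fold (interval 1.63 to 2.84) higher. Atf3 had 16.1 on the vehicle array, 29.4 with RGZ, 27.9 with BSO plus RGZ, 1966 with TGZ and 1201 with BSO plus TGZ. RGZ gave 1.83-fold (interval 1.201 to 2.79) at a signal near the floor, and both TGZ arrays were far above all others. In the endoplasmic reticulum list 2 of 37 genes were higher and 1 lower (median 0.03). Bhlha15 (MIST1), a transcription factor of exocrine cells, was higher by a factor of at least 26.5, not well above background with vehicle, 273 with RGZ and 754 with BSO plus RGZ. It read 23.3 and 15.4 on the TGZ arrays. With normexp its log2 difference was 2.20 against a bound of 4.73. Of 12 markers of pancreatic acinar cells, in which this factor is known, 5 were well above background with vehicle and 6 with RGZ. Cela3b was above background with RGZ only, Cela1 was lower as given above, and Prss1, Prss2, Cpa1, Cpb1, Pnlip and Try4 were not well above background on either array. The summed signal was 5901 with vehicle and 3074 with RGZ, and the part of these markers in the Bhlha15 value was not tested. Dnajb9, a co-chaperone, had 798 on the vehicle array, 2840.3 with RGZ, 4517 with BSO plus RGZ, 2418 with TGZ and 1936 with BSO plus TGZ, a difference of 3.56-fold (interval 2.698 to 4.697). Derl3, a channel for misfolded proteins, had 3068 on the vehicle array, 879.7 with RGZ, 3202 with BSO plus RGZ, 136 with TGZ and 254 with BSO plus TGZ. It was 3.49-fold (interval 2.64 to 4.601) lower with RGZ, near vehicle with BSO plus RGZ, and lowest with TGZ. The inducible heat shock proteins Hspa1b (2.75-fold, 2.07 to 3.66) and Hspa1a (at least 2.19-fold) were higher, the only 2 of 18 chaperones past 2-fold.

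The p53 target list had a median of 0.48 (0.33 with the normexp background), 17 of 22 genes above 0. The cell cycle inhibitor Cdkn1a had 97.9 on the vehicle array, 324 with RGZ, 733 with BSO plus RGZ, 8102 with TGZ and 6289 with BSO plus TGZ, or 3.31-fold (interval 2.49 to 4.38) higher. Gadd45b was 2.57-fold (interval 1.95 to 3.39) higher, and Bbc3 (PUMA), which promotes cell death, 2.56-fold (interval 1.94 to 3.38) lower. Of 26 immediate early genes Jun (2.42-fold, 1.84 to 3.197) and Myc (3.43-fold, 2.36 to 5.002) were higher and the phosphatase Dusp6 2.23-fold (interval 1.69 to 2.95) lower, with a median of 0.03. The antioxidant programme of NRF2 gave 0 of 31 genes past 2-fold and a median of -0.11. Hmox1, which degrades heme, was 1.64-fold (interval 1.24 to 2.16) higher, Nqo1 1.11-fold (interval 0.84 to 1.47) lower, and Gclc, the catalytic subunit of glutathione synthesis, had 9470.1 on the vehicle array, 5919 with RGZ, 12057 with BSO plus RGZ, 9609 with TGZ and 9942 with BSO plus TGZ. RGZ alone was the lowest of the 5 arrays for Gclc, 1.60-fold (interval 1.21 to 2.11) below vehicle. With the normexp background Pycr1, Ddit3, Hspa1a, Hspa1b and Myc came under 2-fold.

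In steroid metabolism the HSD3B genes stood below vehicle. Of 6 measured HSD3B genes all were below 0 and 5 were at least 2-fold lower (median -1.33), while 0 of 16 HSD17B and HSD11B genes passed 2-fold. These enzymes act on steroids, and in rodents Hsd3b5 is a male-biased reductase of the liver. Hsd3b5 had 311 on the vehicle array, 22.2 with RGZ, a value not well above background with BSO plus RGZ, a value not well above background with TGZ and 33.9 with BSO plus TGZ. It was 13.99-fold (interval 10.04 to 19.5) lower with RGZ, and vehicle stood highest by far. Hsd3b6 was 2.73-fold (interval 2.06 to 3.62) lower, Hsd3b3 2.33-fold (interval 1.76 to 3.07), Hsd3b2 2.15-fold (interval 1.63 to 2.83) and Hsd3b1 2.803-fold (interval 2.03 to 3.87). Probes of this family can share sequence. A1bg, a plasma glycoprotein that is female-biased in mouse liver, had 341 on the vehicle array, 36.0 with RGZ, 35.7 with BSO plus RGZ, 26.5 with TGZ and 43.4 with BSO plus TGZ, a difference of 9.45-fold (interval 6.96 to 12.8). All 4 treated arrays were low, near each other. Slco1a1, a male-biased uptake carrier for bile acids and drugs, had 543 on the vehicle array, 153 with RGZ, 96.9 with BSO plus RGZ, 183 with TGZ and 242 with BSO plus TGZ, or 3.55-fold (interval 2.69 to 4.69) lower. The male-biased genes had a median of -0.45 over 16 genes and the female-biased -0.27 over 20, against -0.04 over all measured differences. Among 63 other drug-metabolizing enzymes 51 were below 0 and 4 at least 2-fold lower (median -0.25, and -0.17 with spike-in scaling): Cyp2g1 (3.77-fold, 2.85 to 4.97), the carboxylesterase Ces2c (3.22-fold, 2.44 to 4.26), the flavin monooxygenase Fmo2 (2.28-fold, 1.73 to 3.01) and Cyp26b1 (2.24-fold, 1.70 to 2.96), which degrades retinoic acid. In the list of CAR, PXR and AHR targets Cyp3a13 (2.27-fold, 1.72 to 2.998) and Alas1 (2.09-fold, 1.58 to 2.76), the first enzyme of heme synthesis, were higher and Cyp1a1 lower (2.32-fold, 1.604 to 3.37). Cyp2b10, a target of CAR, was 1.45-fold (interval 1.098 to 1.91) higher by its brightest probe and 1.33 on the log2 scale, past 2-fold, by another. Cyp3a11, a target of PXR, was 1.04-fold (interval 0.79 to 1.37) lower, within 2-fold. Cyp7a1, which commits cholesterol to bile acids, had 772 on the vehicle array, 1995 with RGZ, 1199.9 with BSO plus RGZ, a value not well above background with TGZ and 86.8 with BSO plus TGZ. It was 2.59-fold (interval 1.96 to 3.41) higher with RGZ, the only bile acid gene of 28 past 2-fold upward. RGZ was the highest array for it, and on the TGZ array it was not well above background. Hsd3b1, Hsd3b2 and Cyp1a1 came under 2-fold with the normexp background, under which the log2 difference of Hsd3b5 was -2.27 against -3.81 and that of A1bg -2.09 against -3.24.

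Of 27 nuclear receptors 20 were below 0, with a median of -0.135, inside the quartiles of all measured differences (-0.248 and 0.169). Esrrg, an orphan receptor of energy metabolism, had 92.8 on the vehicle array, 18.1 with RGZ, a value not well above background with BSO plus RGZ, 40.1 with TGZ and 41.8 with BSO plus TGZ. It was 5.12-fold (interval 3.61 to 7.26) lower, and the retinoic acid receptor Rarb was 2.26-fold (interval 1.71 to 2.99) lower. Liver-enriched transcription factors had 0 of 19 past 2-fold and a median of 0.25. Zonated genes were mostly below 0, 14 of 15 pericentral (median -0.35) and 11 of 14 periportal ones (median -0.22). Hal, the periportal histidine lyase, was 2.52-fold (interval 1.91 to 3.32) lower. It belongs as well to the 29 genes of the urea cycle and amino acid breakdown, of which 26 were below 0 (median -0.25). Got1, the cytosolic aspartate aminotransferase, was the other at least 2-fold lower there. It had 15258 on the vehicle array, 5622 with RGZ, 6392 with BSO plus RGZ, 106417 with TGZ and 76466 with BSO plus TGZ. RGZ was 2.71-fold (interval 2.06 to 3.58) below vehicle, and both TGZ arrays were well above it. Rarb came under 2-fold with the normexp background, and Esrrg was then -1.15 on the log2 scale against -2.36.

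Secreted hormones of the liver differed in both directions: 6 of 22 were at least 2-fold higher and 3 lower. Beside Fgf21, Hamp, Fgl1 and Gdf15, the activin subunit Inhbe had 1869 on the vehicle array, 4436 with RGZ, 6784 with BSO plus RGZ, 812 with TGZ and 1896 with BSO plus TGZ, or 2.37-fold (interval 1.799 to 3.13) higher. Its RGZ arrays were high and TGZ alone was low. Fst, which neutralises activins, was 2.699-fold (interval 1.75 to 4.16) higher at low signal. Igfbp1, which binds insulin-like growth factors, had 5528 on the vehicle array, 1684 with RGZ, 1492 with BSO plus RGZ, 317208 with TGZ and 245213 with BSO plus TGZ. It was 3.28-fold (interval 2.49 to 4.33) lower with RGZ, and both TGZ arrays were far above vehicle. Igfbp5 was 2.87-fold (interval 2.15 to 3.83) lower, Enho (adropin) 2.31-fold (interval 1.75 to 3.05) and Lect2 2.02-fold (interval 1.53 to 2.66). Of the metal binders, Mt1 had 49808 on the vehicle array, 199124 with RGZ, 208982 with BSO plus RGZ, 306769.7 with TGZ and 252098 with BSO plus TGZ, a difference of 3.998-fold (interval 3.03 to 5.28), and Mt2 had 31874 on the vehicle array, 144602 with RGZ, 154289.9 with BSO plus RGZ, 284326 with TGZ and 240347 with BSO plus TGZ. Both were high on every treated array by these probes. A further Mt1 probe went the other way, -1.72 on the log2 scale against 1.999, so the direction of Mt1 rests on the probe. Bmp6, which signals iron load, was at least 2.202-fold lower. Lect2, Igfbp5, Fst and Bmp6 came under 2-fold with the normexp background, Lect2 with median, quantile and spike-in scaling as well, and Mt1 with probes averaged (0.14 on the log2 scale).

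The remaining lists had fewer genes past 2-fold. Of 40 cell cycle genes 1 was higher and 3 lower: Tk1, thymidine kinase, had 1706 on the vehicle array, 472 with RGZ, 224 with BSO plus RGZ, 230.5 with TGZ and 332 with BSO plus TGZ, or 3.61-fold (interval 2.74 to 4.77) lower, and Rrm2 and Ube2c were 2.09-fold (interval 1.54 to 2.82) and 2.18-fold (interval 1.35 to 3.503) lower. Cep55, a protein of cell abscission, had 14.4 on the vehicle array, 237 with RGZ, 405 with BSO plus RGZ, 237 with TGZ and 277 with BSO plus TGZ. It was 16.5-fold (interval 10.6 to 25.6) higher, with every treated array above vehicle, while 14 of the 18 genes of its phase were below 0. In the clock list Arntl (BMAL1) alone passed 2-fold of 20 genes. It had 71.3 on the vehicle array, 20.2 with RGZ, 36.1 with BSO plus RGZ, 76.4 with TGZ and 86.0 with BSO plus TGZ. RGZ alone was lowest, 3.52-fold (interval 2.44 to 5.09) below vehicle, and the TGZ arrays were near vehicle. Of 43 interferon and antigen presentation genes, Gbp2 was 3.32-fold (interval 2.51 to 4.39) higher, Usp18 2.39-fold (interval 1.81 to 3.16) lower and Ifit1 2.06-fold (interval 1.55 to 2.73) lower. Collagen and matrix genes were below 0 in 14 of 17 (median -0.44, and -0.27 with the normexp background), with Col3a1 2.07-fold (interval 1.57 to 2.74) lower. The stellate cell markers beside them had a sum of 21866 with vehicle and 18830 with RGZ. Ribosome biogenesis was above 0 in 18 of 20 genes (median 0.32) with 0 past 2-fold. Some genes named above also belong to further lists, of which glucocorticoid targets had 3 of 14 higher and 1 lower, iron and heme genes 3 of 29 and 1, metallothioneins and zinc transporters 3 of 10 and 0, and glutathione genes 1 of 22 and 0. Glucose metabolism had 2 of 46 lower and the insulin and IGF axis 2 of 19, with none higher. No gene passed 2-fold among 27 of the respiratory chain (median -0.08), 20 ribosomal proteins (0.02), 19 tRNA synthetases (0.14), 21 proteasome subunits (0.04), 16 amino acid transporters (0.00) or 10 polyamine genes (-0.05). The normexp background brought Rrm2, Ube2c, Arntl, Ifit1 and Col3a1 under 2-fold, and spike-in scaling Rrm2, Ifit1 and Col3a1. With normexp Cep55 had a log2 difference of 1.91 against 4.04.

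The other genes among the 30 largest measured differences in each direction follow here. On the higher side Slc13a5, the citrate importer of hepatocytes, had 97.0 on the vehicle array, 678 with RGZ, 1384 with BSO plus RGZ, 4766 with TGZ and 3619 with BSO plus TGZ, a difference of 6.99-fold (interval 5.28 to 9.26). Prg4 (lubricin) had 2188 on the vehicle array, 11054 with RGZ, 11226 with BSO plus RGZ, 4981 with TGZ and 5183 with BSO plus TGZ, or 5.05-fold (interval 3.83 to 6.67). Dnajc12, a co-chaperone of aromatic amino acid hydroxylases, had 810.2 on the vehicle array, 3902 with RGZ, 5025 with BSO plus RGZ, 799 with TGZ and 1136 with BSO plus TGZ. Both RGZ arrays were high, TGZ alone equalled vehicle, and the difference with RGZ was 4.82-fold (interval 3.65 to 6.36). Arfgap3, of vesicle transport, had 274 on the vehicle array, 1175 with RGZ, 1686 with BSO plus RGZ, 364 with TGZ and 365 with BSO plus TGZ, or 4.29-fold (interval 3.25 to 5.67). Rufy4 showed the same order at low signal (4.37-fold, 2.897 to 6.59). Tifa, an adaptor of innate signalling, was 4.24-fold (interval 3.19 to 5.64) higher, the copine Cpne8 6.36-fold (interval 4.59 to 8.81), the cytochrome Cyb561 4.43-fold (interval 3.34 to 5.87), Krtap11-1 4.56-fold (interval 3.46 to 6.02) and Unc79 8.32-fold (interval 5.21 to 13.3). On the lower side Dmbt1, a mucosal scavenger receptor, had 2905 on the vehicle array, 564 with RGZ, 139.8 with BSO plus RGZ, 2608 with TGZ and 3555 with BSO plus TGZ. It was 5.15-fold (interval 3.903 to 6.797) lower with RGZ, lowest with BSO plus RGZ, and near vehicle on the TGZ arrays. Rgs16, which ends G protein signals, had 7657 on the vehicle array, 1953 with RGZ, 869 with BSO plus RGZ, 3579 with TGZ and 3962 with BSO plus TGZ, or 3.92-fold (interval 2.97 to 5.17) lower. Ddc, which makes dopamine and serotonin, had 10131 on the vehicle array, 2897 with RGZ, 2483 with BSO plus RGZ, 7759.5 with TGZ and 7026 with BSO plus TGZ, a difference of 3.497-fold (interval 2.65 to 4.61) by its brightest probe and of -0.601 on the log2 scale by the other. Atp2b2, a calcium pump, was 4.43-fold (interval 3.34 to 5.87) lower, Poln, a DNA polymerase, 4.45-fold (interval 3.28 to 6.06), Serpina9 4.38-fold (interval 3.304 to 5.799), Slc26a4 (pendrin) 3.34-fold (interval 2.495 to 4.47) and the lectin Cd209f 3.37-fold (interval 2.49 to 4.55). Spry4, an inhibitor of receptor tyrosine kinase signals, was 3.85-fold (interval 2.68 to 5.52) lower and Nfe2, a factor of red cells and platelets, 3.96-fold (interval 2.46 to 6.37). Tnnt2, the cardiac troponin, was 3.56-fold (interval 2.32 to 5.45) lower by one probe and -0.35 on the log2 scale by another. Among genes with a bound, Chil1, a chitinase-like protein, was at least 5.11-fold higher, and Cnn1, of smooth muscle, at least 6.27-fold lower. Olfr1262 and Triml1 read 98.9 and 58.3 on the RGZ array and were not well above background on any of the other 4, so each rests on 1 array. With the normexp background Rufy4, Spry4, Nfe2, Tnnt2, Chil1, Cnn1 and Triml1 came under 2-fold. Others stayed past 2-fold but were closer to 0: the log2 difference was 1.08 against 3.06 for Unc79, 1.47 against 2.67 for Cpne8, 1.49 against 2.08 for Tifa and 1.26 against a bound of 3.26 for Olfr1262. On the lower side it was -1.20 against -2.15 for Poln, -1.05 against -1.74 for Slc26a4 and -1.01 against -1.75 for Cd209f.

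**Figure D4:**
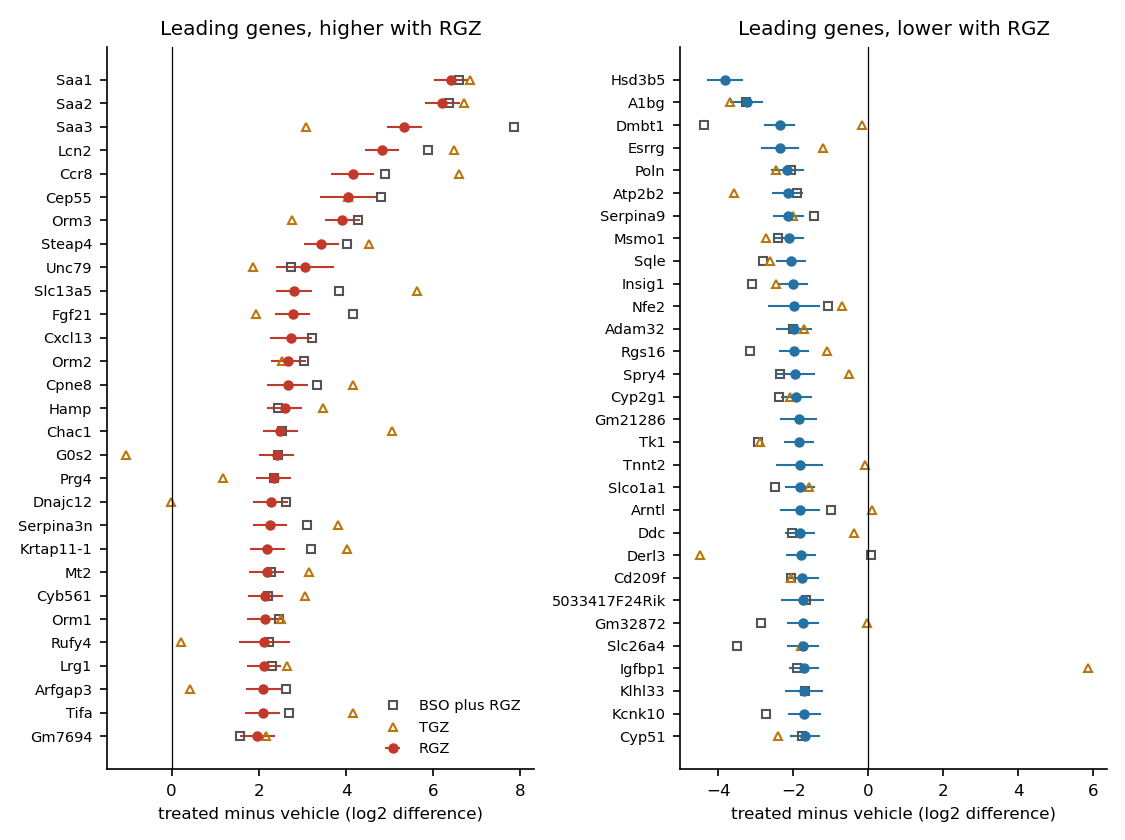
Log2 difference from vehicle for genes leading each direction with RGZ (filled circles with 95% spot error bars). Open squares are BSO plus RGZ and open triangles TGZ, shown where measured; all share the vehicle array, and G0s2, Dnajc12 and Igfbp1 are genes where the triangle lies at or across 0 from the circle.

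TGZ and RGZ were given at the same dose and time, so their arrays were also set against each other directly, without vehicle. This was the only pair of compounds compared, and with 1 array each no difference could be tested. Of 21512 genes, 1808 (8.40%) were at least 2-fold higher with RGZ than with TGZ and 1984 (9.22%) lower. Against vehicle, TGZ had 19.5% of 21317 genes past 2-fold (10.1% higher and 9.48% lower) and RGZ 3.31%. Among the 30 leading higher genes of RGZ, 9 were at least 2-fold above TGZ, 10 at least 2-fold below it and 11 within 2-fold. Among the 30 leading lower genes 4 were above, 9 below and 17 within. Both sets were chosen by their difference on this same RGZ array, so these counts are not independent of that choice. Genes well above TGZ were G0s2 (10.9-fold, 8.26 to 14.4), Saa3 (4.76-fold, 3.61 to 6.28), Dnajc12 (4.88-fold, 3.702 to 6.45), Arfgap3 (3.22-fold, 2.44 to 4.25), Cxcl13 (at least 14.6-fold) and Derl3 (6.45-fold, 4.87 to 8.54). Genes well below TGZ were Igfbp1 (188-fold, 143 to 249), Slc13a5 (7.03-fold, 5.33 to 9.27), Chac1 (5.92-fold, 4.49 to 7.82), Ccr8 (5.397-fold, 4.09 to 7.12) and Dmbt1 (4.62-fold, 3.505 to 6.102). For other leading genes the direct difference was small. Its log2 interval from spot error ran from -0.403 to 0.402 for Cep55, from -0.25 to 0.55 for Orm2, from -0.66 to 0.14 for Slco1a1 and from -0.22 to 0.59 for Cyp2g1. Of the fixed receptor and target genes, Pdk4, Atf3, Hmox1 and Fabp4 were 75.99-fold, 66.9-fold, 11.5-fold and 5.82-fold lower with RGZ than with TGZ. Cyp4a10, Cyp4a14, Cyp2b10 and Cyp3a11 differed between the drugs by at most 1.06-fold.

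BSO with RGZ gave 6.82% of 21210 genes past 2-fold against vehicle, 3.05% higher and 3.78% lower. With no BSO-only group, BSO and its joint action with RGZ cannot be told apart. Of the 30 leading higher genes of RGZ alone, 6 were a further 2-fold higher with BSO, 24 were within 2-fold of RGZ alone and 0 were lower by that much. Saa3 had the largest further difference, 5.74-fold, interval 4.35 to 7.58, followed by Fgf21 (2.63-fold, interval 1.997 to 3.48). Of the 30 leading lower genes 9 were a further 2-fold lower, 20 were within 2-fold and 1, Derl3, was higher (3.64-fold, interval 2.76 to 4.802). Dmbt1 was a further 4.04-fold, interval 3.05 to 5.33 lower. The share of all genes past 2-fold between the BSO plus RGZ and RGZ arrays is not given here. Both sets of 30 were chosen by their difference on the RGZ array. These counts are therefore not independent of that choice and show nothing particular to these genes.

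**Figure D5:**
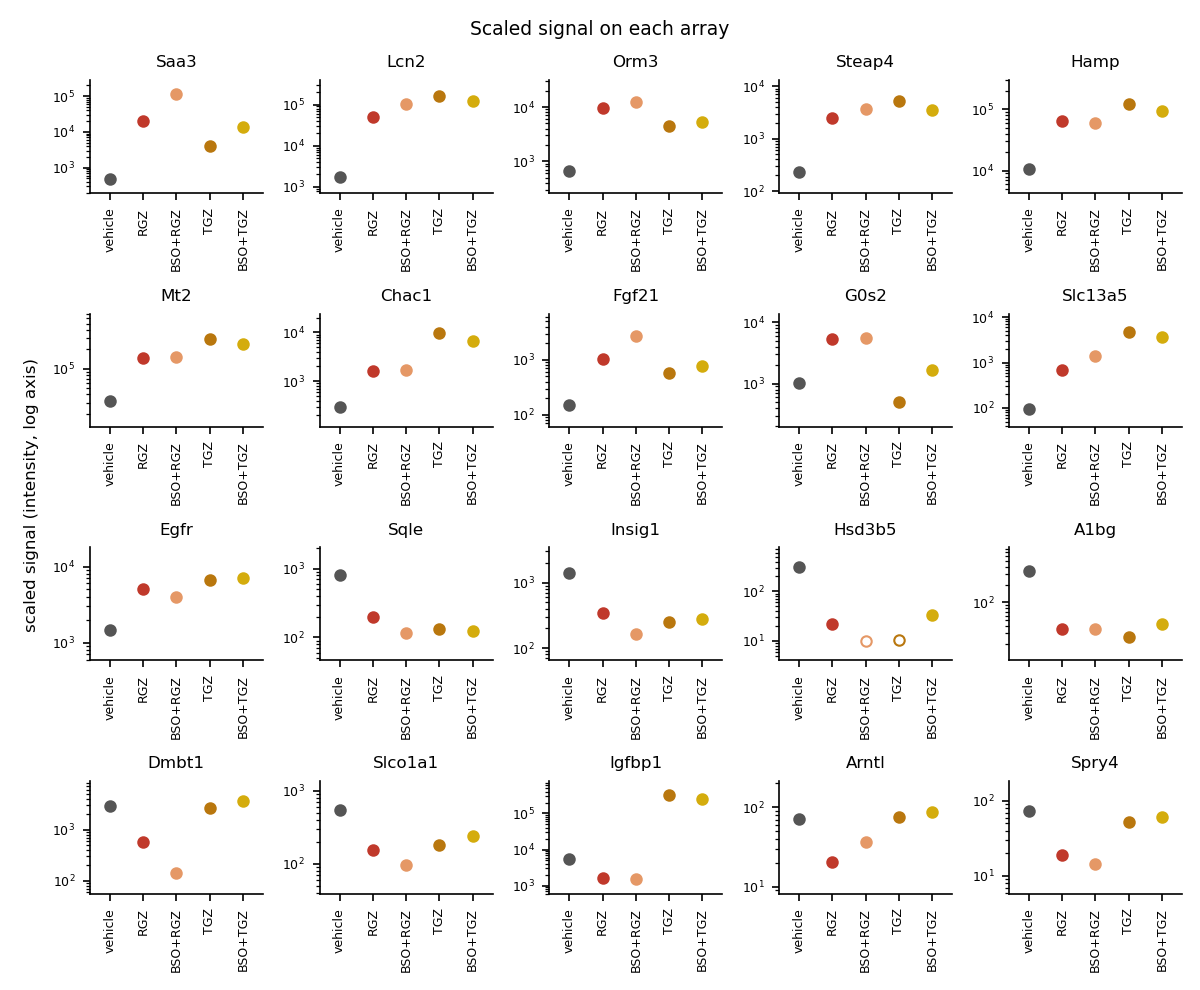
Scaled signal (log axis, intensity) of 20 genes on each of the 5 arrays, 1 point per array; open points are not well above background. The acute phase genes are high on all treated arrays, Igfbp1 is low on the RGZ arrays and high on the TGZ arrays, and G0s2 is high on both RGZ arrays.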

How the data were processed

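Liver RNA pools of 5 groups, 6 animals each, were measured on 1 Agilent single-colour (Cy3) array per group, all on 1 slide. Per the file headers, the authors' scanner files were made with Feature Extraction 12.0.3.1 and the probes are placed on mm9; the submitters' processing notes name the same software. The deposited intensity used is the processed signal, background-subtracted by that software. The deposited log2 table equalled log2 of it plus 1 constant per array, so it was scaled and not centred by gene (column medians 4.022, 4.008, 4.074, 4.0 and 3.916 for vehicle, TGZ, BSO plus TGZ, RGZ and BSO plus RGZ). How those constants were set was not given in the sources used here.

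Control spots and the 77 to 97 outlier-flagged spots per array were left out, spots of 1 probe were averaged, and no spot was saturated. Log2 signals were scaled to the 75th percentile, before scaling 141.5 to 208.3. Each gene name was represented by its probe of highest mean signal over all 5 arrays. Bounds used the dim array's own signal or the lowest signal well above background on that array, whichever was higher. Where the own signal was higher, "at least" stands before a plain ratio to a signal not well above background. Intervals are 95%, from the software's spot error. The number of arrays, 1 per group, limits precision, and no p-value was computed. The software was Python 3.11.15 with numpy 2.4.6 and pandas 2.3.3, and R 4.3.3 with limma 3.58.1 for normexp (offset 50). The calculation was tested on simulated data.

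Named genes were the 30 largest measured differences each way, the 5 largest bounds each way, a fixed set of receptor, target and stress genes, and listed genes at least 2-fold different (in lists with none, those farthest from 0). A few of these are not reported here. The members and 62 lists were chosen with earlier results of these data known, and 7 further lists after their values were seen; 1279 of the 1288 genes in all of these matched, 8 through a synonym. Promoter windows and symbols are RefSeq's for GRCm38.p6, and no coordinates were converted between builds.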

Additional observations from a re-analysis of the deposited data

How the results depend on the processing

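No measured difference of the named genes reversed under any alternative run: median, quantile and spike-in scaling, the deposited log2 table, normexp background, no filter, both arrays above background, the submitters' filter, and probes averaged. The counts at 2-fold, 352 higher and 354 lower, were 135 and 89 with the normexp background and 1173 and 1635 with no filter on dim probes. They were 1272 and 1613 at a 1.5-fold threshold and 49 and 21 at 4-fold. Without the filter the median of all genes was -0.168, against -0.033 with it. Of 165 named genes at least 2-fold different, 108 were so under every alternative that gave a value, and 57 came under 2-fold in at least 1, 52 of them with normexp. Group medians that moved included the serum amyloid group, 2.41 with no filter and 3.30 with the submitters' filter, and cholesterol synthesis, -0.96 with normexp. By construction the offset of 50 added with normexp shrinks the differences of dim probes. No paired analysis was possible because each group had 1 array, and for the same reason no replicate could be left out. Signal over background limits dim genes, and nothing here measures the spread between animals or pools.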

Other observations

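Further gene groups, chosen after their values were seen and described without support for any of them, held some of the leading genes. In the EGF receptor group, with feedback inhibitors of ERK signalling, 1 of 19 genes was at least 2-fold higher and 2 lower, with a median of -0.21 on the log2 scale. Egfr, the receptor, had a scaled signal of 1469 on the vehicle array, 5082 with RGZ, 3959 with BSO plus RGZ, 6705 with TGZ and 7185 with BSO plus TGZ, a difference of 3.46-fold (interval 2.62 to 4.57) higher. Every treated array stood above vehicle by this probe, and the 4 measured Egfr probes ran from 0.47 to 2.13 on the log2 scale with RGZ. Its feedback inhibitors Spry4 and Dusp6 were the lower genes, -1.94 and -1.16 on the log2 scale. In the Serpina3 antiprotease cluster 3 of 9 genes were higher, Serpina3n, Serpina3g and Serpina3i (3.51-fold, 2.66 to 4.64), with a median of 0.00. Probes of this cluster can share sequence.

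Of 11 guanylate-binding proteins, GTPases induced by interferon gamma, Gbp2 and Gbp2b (2.32-fold, 1.75 to 3.07) were higher while 8 were below 0 and the median was -0.25. Of 7 citrate and dicarboxylate carriers Slc13a5 was higher and Slc13a2 lower. Slc13a2 had 193 on the vehicle array, 64.6 with RGZ, 35.4 with BSO plus RGZ, 21.3 with TGZ and 45.1 with BSO plus TGZ. It was 2.99-fold (interval 2.24 to 3.98) lower with RGZ, and every treated array was below vehicle. Of 8 insulin-like growth factor binding proteins 7 were below 0, with Igfbp1 and Igfbp5 at least 2-fold lower (median -0.32). Of 7 activin and follistatin genes Inhbe and Fst were higher (median 0.24). All 4 CD209 lectins with a value were below 0, and Cd209f alone passed 2-fold. Gbp2b and Fst came under 2-fold with the normexp background.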
